A study of Danio rerio with 4 samples.

Results

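Apelin, sphingosine 1-phosphate (S1P) and Cxcl12 are secreted cues that direct the migration of endothelial and cardiac progenitor cells, and 10 genes for these cues and their receptors were examined in *egr3* mutant hearts. Their rows were found by gene symbol among the 19661 genes of the deposited table. The 10 genes are the apelin receptor ligands *apln* and *apela*, the apelin receptors *aplnra* and *aplnrb*, the S1P receptors *s1pr1* and *s1pr2*, the chemokines *cxcl12a* and *cxcl12b*, and the chemokine receptors *cxcr4a* and *cxcr4b*. All 10 reached the minimum mean level for a test, 5 normalized counts, as did 17501 genes in all.

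At 48 hpf, hearts were collected from 2 genotypes, *egr3* mutants with 2 copies of *bns577* (genotype bns577-/-), an 11-bp deletion in *egr3*, and their wild-type siblings. *egr3* encodes a zinc finger transcription factor expressed in valve endocardial cells (EdCs), and the question was which transcripts differ in hearts that lack it as the EdCs begin to migrate. Each genotype was represented by 2 libraries, each a pool of 20 hearts, and mRNA of all cells of the heart was read together by bulk RNA-seq. The values are counts that the authors normalized between libraries, with totals of 9254724 and 9481943 in wild-type pools, against 9161759 and 9313756 in mutant pools.

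All 3 receptor families are G protein-coupled receptors at the cell surface. In zebrafish, the apelin receptors and the Apela peptide, also called Elabela or Toddler, guide mesodermal cells that will form the heart, and apelin also acts on sprouting vessels. S1P is made from sphingosine inside cells, leaves them through transporters such as Spns2, and acts through S1pr2 in the migration of the paired heart primordia to the midline. Cxcl12 ligands attract cells that carry Cxcr4, including germ cells, leukocytes and vessel cells, while the receptor Ackr3 takes Cxcl12 up and clears it.

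Some properties of the libraries bear on every value. *egr3* transcripts were at 528 and 537 normalized counts in wild-type hearts, compared with 873 and 889 in mutant hearts (log2 fold change 0.73, SE 0.05, adjusted p = 0.122, limma), so the level of the targeted gene was higher, not lower, in the libraries labelled mutant. In a sheet supplied with the study, the library of wild-type replicate 2 has a mutant name and that of mutant replicate 2 a wild-type name, and the genotypes used are those of the sample labels. An exchange of these libraries would group wild-type 1 with mutant 2. Some transcripts were separate by the labels with close replicates. The hatching enzyme gene *he1.1* was at 987 and 1063 normalized counts in wild-type hearts, compared with 17 and 16 in mutant hearts. The epicardial list gene *postna* was at 131 and 134 against 39 and 40. Only 2 of the 6 epicardial and 2 of the 8 skin and hatching gland markers were separate by the labels. In other genes of these lists, wild-type 1 was close to mutant 2. The epicardial list gene *tbx18* was at 148 and 48 in wild-type pools, against 47 and 148 in mutant pools. The skin list gene *tp63* was at 110 and 259 against 240 and 105. Skin genes were highest in wild-type replicate 2 and lowest in mutant replicate 2, with *krt4* at 1765 and 10395 in wild-type pools, against 2015 and 354 in mutant pools. The 8 skin and hatching gland markers together summed to 4554 and 17459 in wild-type pools and to 3995 and 1255 in mutant pools. The 10 endothelial and endocardial markers were all detected and summed to 24400 and 22662 in wild-type pools and to 23220 and 25875 in mutant pools. The myocardial markers found in the table, 8 of 9, summed to 34175 and 36587 and to 34383 and 33174. Of their 9 rows, 8 were lower in both mutants and *myh6* overlapped, while genotypes were separate for 50.5% of all genes. Across genes, the difference between replicates 1 and 2 of the wild types was met by a similar difference of opposite sign in the mutants, so the 4 values of a gene hold little more than 1 measure of replicate spread, and p-values, which measure only the spread between these pools, are too small. At an unadjusted p under 0.05 in limma, the fit used throughout, 21.6% of all genes tested were called.

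None of the 10 genes differed between the genotypes at an adjusted p under 0.05 (limma, Benjamini-Hochberg adjustment over 17501 genes), a level that 0.00571% of all genes, or 1 gene, *he1.1*, reached. At an unadjusted p under 0.05, 2 of 10 were called, *aplnra* higher and *apln* lower in the mutants, a share close to the 21.6% of all genes. The mutants lay entirely above or below the wild types for 4 of 10, namely *aplnra*, *apela* and *s1pr1* on the higher side and *apln* on the lower, against 50.5% of all genes. A change of at least 1.5-fold in either direction was measured for 1 of 10, *apela*, against 17.2% of all genes. The median log2 fold change of the 10 genes was 0.07, against -0.00 over all genes tested. With wild-type 1 grouped with mutant 2, the 4 genes separate by the labels would overlap. *aplnrb*, *s1pr2*, *cxcl12a*, *cxcl12b*, *cxcr4a* and *cxcr4b* would then be separate. The opposite deviations of replicates give such a result wherever they exceed the difference between genotypes. Replicate 1 alone leaves out the libraries whose names are crossed. From it, the differences were -0.09 for *apln*, 1.12 for *apela*, 0.13 for *aplnra* and 0.03 for *s1pr1*. Their signs were those over all libraries, as they must be for genes whose genotypes do not overlap. The sign turned for 4 of the 10 genes, namely *s1pr2*, *cxcl12a*, *cxcr4a* and *cxcr4b*. With any 1 library left out, the log2 fold change ran from -0.14 to -0.09 for *apln* and from 0.20 to 0.37 for *aplnra*.

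**Figure D1:**
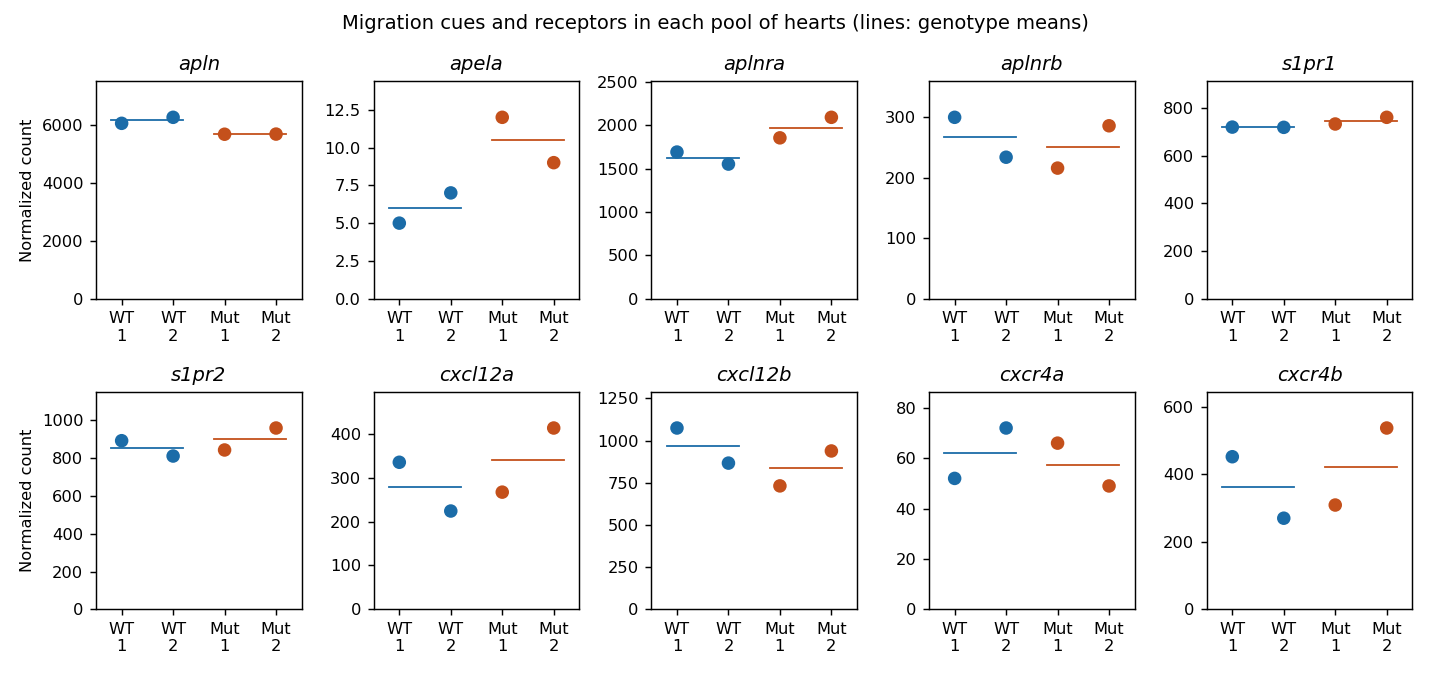
Normalized counts (y axes from 0) of the 10 cue and receptor genes in the 2 wild-type (WT, blue) and 2 mutant (Mut, orange) pools of hearts; points are single pools and lines the genotype means. The genotypes do not overlap for *apln*, *apela*, *aplnra* and *s1pr1*, and in 7 genes, including *cxcr4b* at 452, 270, 309 and 537, wild-type 1 and mutant 2 are the higher pool of their genotype.

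Among the ligands, *apln* (ENSDARG00000053279, chromosome 14 from 33722950 to 33757715 in the danRer11 annotation, as all positions here) had one of the highest counts, at rank 19 of 17501 by mean normalized count. This rank is not corrected for transcript length and follows removal of duplicate reads, so it does not give the share of *apln* in heart mRNA. Normalized counts of *apln* were 6065 and 6273 in wild-type hearts and 5688 and 5693 in mutant hearts. Both mutant pools were below both wild-type pools, and the 2 mutant pools were almost equal. The mutant mean was 0.922 times the wild-type mean, with a log2 fold change of -0.12 (SE 0.02, unadjusted p = 0.0120, adjusted p = 0.147, limma). Most other genes with high counts were also lower, by less than *apln* in the majority. Of the 50 genes with the highest mean other than *apln*, 42 had a log2 fold change below 0, 11 of them at or below that of *apln*, and 35 had both mutant pools below the wild-type pools, with a median log2 fold change of -0.09 (-0.00 over all genes tested). Relative to its own mean, *apln* stood at 1.02, 1.06, 0.959 and 0.960 in wild types 1 and 2 and mutants 1 and 2, and the medians of those 50 genes were 1.02, 1.05, 0.965 and 0.968. Duplicate reads had been removed before counting, a step that weighs most on abundant transcripts, and its part in the *apln* value was not tested. Of the 9 myocardial marker rows, 8 were also lower in both mutants. The part of myocardial cells in the *apln* value was not tested.

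The other apelin receptor ligand, *apela* (ENSDARG00000094729, chromosome 1 from 19667947 to 19673900), was close to the lower limit of detection. It was at 5 and 7 normalized counts in wild-type pools, against 12 and 9 in mutant pools. Both mutants were higher, but the counts are few, and counting error alone corresponds to about 0.50 on the log2 scale in a library with its mean level. Its log2 fold change of 0.72 (SE 0.33, unadjusted p = 0.101, adjusted p = 0.309, limma) did not pass the test, and the differences between single mutant and wild-type pools ran from 0.32 to 1.12.

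The apelin receptor *aplnra* (ENSDARG00000002172, chromosome 8 from 40325690 to 40327397) had the lowest p among those of the 10 genes that were higher in the mutants. Normalized counts were 1693 and 1554 in wild-type hearts, compared with 1857 and 2094 in mutant hearts. The lower mutant pool exceeded the higher wild-type pool, and the mutant mean was 21.7% above the wild-type mean. The fit gave a log2 fold change of 0.28 (SE 0.08, unadjusted p = 0.0348, adjusted p = 0.199, limma), and pool by pool the difference was between 0.13 and 0.43. A difference of this size or more was measured in 37.6% of all genes tested. Summed endothelial and endocardial markers were 1.04 times as high in the mutants, and relative to them the log2 fold change was 0.22 (adjusted p = 0.198, limma). The adjusted p (limma) ran from 0.170 to 0.841 over the alternatives without the crossed block and with all libraries. Single markers differed from their sum. Higher in both mutants were *nfatc1* (1549 and 1644 against 1872 and 1825), *kdrl* (1658 and 1611 against 1799 and 1917) and *etv2* (1210 and 1165 against 1332 and 1433). *fli1a* was lower in both, and the other markers overlapped. The part of endothelial and endocardial cells in the *aplnra* value was not tested.

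*aplnra* lies 10.4 Mb from *egr3* on the same chromosome, where mutant hearts can be homozygous for DNA linked to the mutant allele. Of the 15 other tested genes within 0.5 Mb of *aplnra*, 9 had an unadjusted p under 0.05 (4 of them higher in the mutants), against 21.6% of all genes. The part of linked sequence in the *aplnra* value was not tested.

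The paralog *aplnrb* (ENSDARG00000036670, chromosome 10 from 8629275 to 8631361), the receptor whose loss in zebrafish leaves few or no heart precursors, was less abundant, with 128 normalized counts per kb of gene span in the wild types against 951 for *aplnra*, both being compact genes. Its counts were 300 and 234 in wild-type pools and 216 and 286 in mutant pools. The genotypes overlapped, and the estimate of -0.09 (SE 0.21, adjusted p = 0.826, limma) had an unadjusted 95% interval from -0.71 to 0.53. The ratio of *aplnra* to *aplnrb* within a library, which does not depend on the scaling of libraries, was 5.64 and 6.64 in wild-type hearts and 8.60 and 7.32 in mutant hearts. Both mutant ratios were above both wild-type ratios. The ratio of *apln* to *aplnra* was 3.58 and 4.04 in wild-type pools, against 3.06 and 2.72 in mutant pools, lower in both mutants, whereas the ratio of *apln* to *aplnrb* overlapped (20.2 and 26.8 against 26.3 and 19.9). With 2 libraries per genotype, an exact permutation test of a ratio cannot go below a two-sided p of 0.33, so none was run. No share over other gene pairs was computed, while genotypes were separate for 50.5% of single genes.

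The 2 S1P receptors were nearly level between genotypes. *s1pr1* (ENSDARG00000042690, chromosome 22 from 16038495 to 16042243), the receptor that steadies endothelial junctions in mouse and zebrafish vessels, was at 719 and 718 normalized counts in wild-type hearts, compared with 732 and 760 in mutant hearts. Both mutants were above both wild types by a small margin, with a log2 fold change of 0.05 (SE 0.05, adjusted p = 0.551, limma) and an unadjusted 95% interval from -0.08 to 0.19. Relative to the endothelial and endocardial markers the value was -0.0059, so no direction can be given.

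*s1pr2* (ENSDARG00000036548, chromosome 3 from 54616015 to 54669185), the receptor mutated in *miles apart* embryos with unfused hearts, was at 891 and 810 normalized counts in wild-type pools and 842 and 958 in mutant pools. Each mutant value lay within or above the wild-type range, the genotypes overlapped, and the log2 fold change was 0.08 (SE 0.10, adjusted p = 0.659, limma; unadjusted 95% interval from -0.20 to 0.36). The ratio of *s1pr2* to *s1pr1* was 1.24 and 1.13 in wild-type hearts and 1.15 and 1.26 in mutant hearts, and these ranges overlapped.

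The Cxcl12 ligands differed more between single pools of one genotype than between the genotype means. *cxcl12a* (ENSDARG00000037116, chromosome 13 from 30804367 to 30819715), the ligand of migrating germ cells and of the lateral line primordium, was at 335 and 224 normalized counts in wild-type pools, against 267 and 413 in mutant pools. *cxcl12b* (ENSDARG00000055100, chromosome 22 from 26929554 to 26945493), which acts on vessels, was at 1075 and 867 in wild-type hearts, compared with 732 and 939 in mutant hearts. For both ligands the genotypes overlapped, with wild-type 1 and mutant 2 the higher pools of their genotypes. The log2 fold change was 0.28 for *cxcl12a* (SE 0.33, adjusted p = 0.655) and -0.22 for *cxcl12b* (SE 0.18, adjusted p = 0.529, limma for both). From replicate 1 alone the differences were -0.33 for *cxcl12a* and -0.55 for *cxcl12b*, so the sign for *cxcl12a* depended on the replicate. The ratio of *cxcl12b* to *cxcl12a* was 3.21 and 3.87 in wild-type pools and 2.74 and 2.274 in mutant pools, lower in both mutants. This ratio was not tested, and genotypes were separate for 50.5% of single genes.

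The receptors *cxcr4a* and *cxcr4b* did not separate the genotypes either. *cxcr4a* (ENSDARG00000057633, chromosome 6 from 12922002 to 12923727), the endothelial paralog in zebrafish, was at 52 and 72 normalized counts in wild-type hearts and 66 and 49 in mutant hearts, giving a log2 fold change of -0.10 (SE 0.26, adjusted p = 0.840, limma). *cxcr4b* (ENSDARG00000041959, chromosome 9 from 10692905 to 10694930), which is carried by leukocytes and germ cells among others, was at 452 and 270 in wild-type pools, against 309 and 537 in mutant pools, giving a log2 fold change of 0.22 (SE 0.41, adjusted p = 0.781, limma). For *cxcr4b*, single pools of the same genotype differed by 1.67 times in the wild types and by 1.74 times in the mutants. The genotype means differed by less, as the plot of differences between genotypes shows. *cxcr4b* was the more abundant paralog, at 178 and 209 normalized counts per kb of gene span in wild types and mutants, against 35.9 and 33.3 for *cxcr4a*. In bulk hearts, fewer cells of a type and less RNA per cell cannot be told apart.

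**Figure D2:**
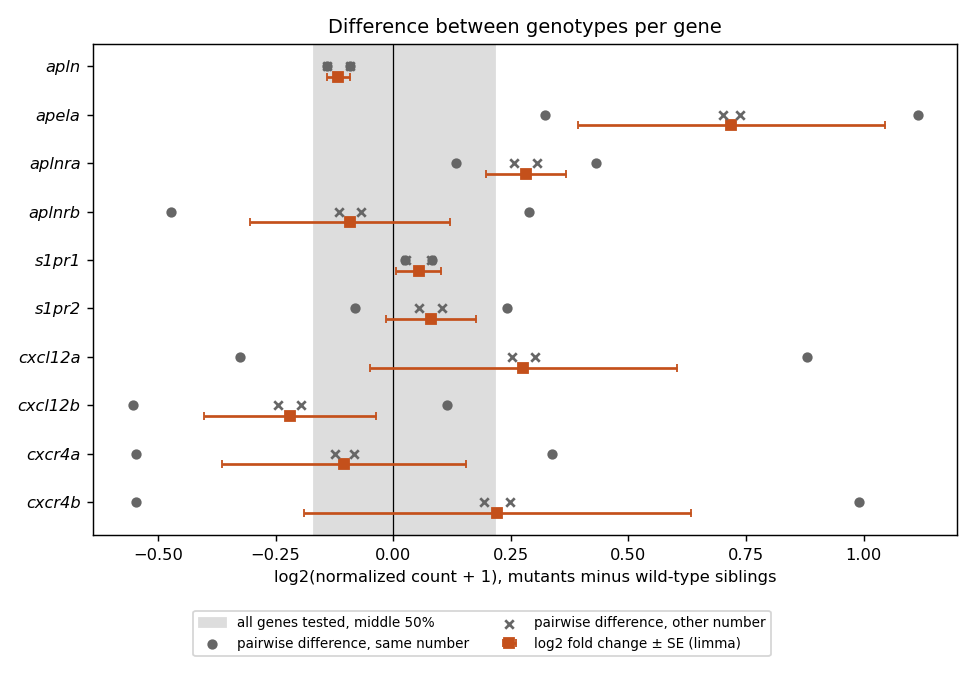
Differences between mutants and wild-type siblings on the log2(normalized count + 1) scale (x axis) for each gene (y axis); gray points and crosses are the 4 differences between single pools, orange squares the log2 fold change with its SE from limma, and the gray band the middle 50% of all genes tested. The single differences all lie on one side of 0 for *apln*, *apela*, *aplnra* and *s1pr1*, and they reach from -0.55 to 0.99 for *cxcr4b*.

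As a group, the 10 genes differed more between pools of one genotype than all genes tested did. The median absolute difference between replicates of a genotype was 0.358 on the log2 scale for the 10 genes and 0.177 for all genes tested. The median absolute log2 fold change was 0.168 and 0.191, respectively. The former is a difference between single pools and the latter between means of 2 pools, so the 2 measures are not directly comparable. Wild-type 1 and mutant 2 were both the higher pool for 7 of 10 genes, against 42.9% of all genes, and the reverse held for 2, *apela* and *cxcr4a*, against 45.5%. Ligand and receptor moved in parallel for *cxcl12a* and *cxcr4b*. Their ratio stayed between 0.741 and 0.864 in the 4 libraries, although each gene varied by more than 1.5-fold. Replicates deviated in opposite ways in the 2 genotypes, so this parallel holds little more than 1 independent comparison. The ratio of *cxcl12b* to *cxcr4a*, by contrast, was 20.7 and 12.0 in wild-type hearts, compared with 11.09 and 19.2 in mutant hearts.

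The order of pools also differed among markers of cell types. The 8 leukocyte markers, all detected, summed to 4562 and 3613 normalized counts in wild-type pools and to 3911 and 5096 in mutant pools, with 7 of 8 higher in wild-type 1 and mutant 2. The 6 epicardial and mesothelial markers summed to 1427 and 1130 in wild-type hearts and to 1029 and 1373 in mutant hearts, with 5 of 6 in that order, as were 8 of 10 endothelial and endocardial markers. The same order held for 5 of 7 neural, 3 of 5 liver and yolk and 2 of 3 outflow smooth muscle markers. It also held for 3 of 6 skeletal muscle and 3 of 8 red cell markers, and for 42.9% of all genes. None of the myocardial or pharyngeal markers were in that order, and the reverse order was seen in 5 of 9 myocardial rows, 6 of 6 pharyngeal markers and 8 of 8 skin and hatching gland markers. The part of these cells in the values of *cxcl12a*, *cxcl12b*, *cxcr4b* and *aplnrb* was not tested.

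**Figure D3:**
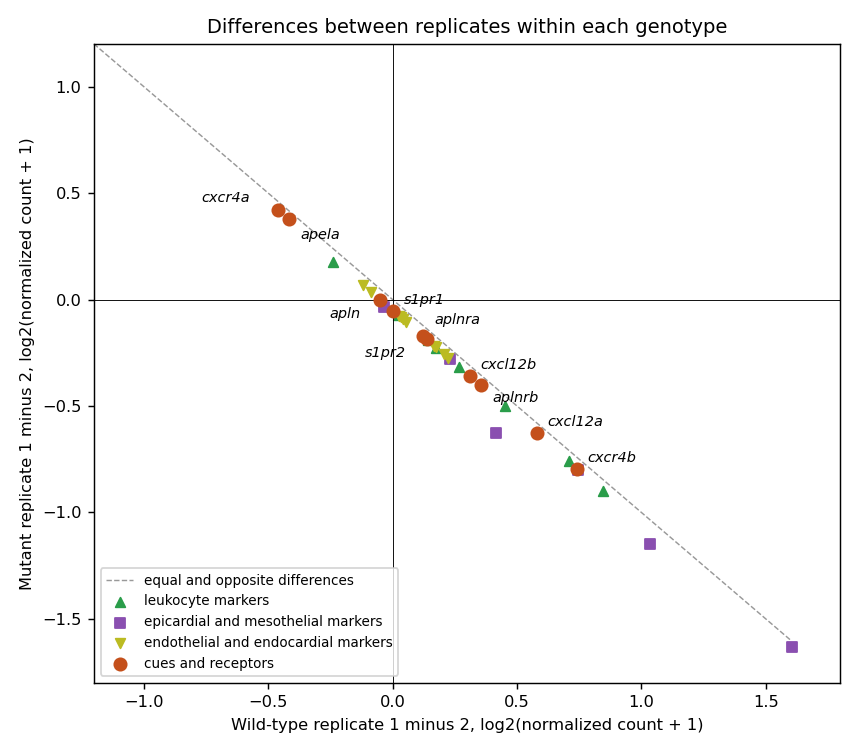
Difference between replicates 1 and 2 of the wild types (x axis) and of the mutants (y axis), on the log2(normalized count + 1) scale, for the 10 cue and receptor genes (orange) and for leukocyte, epicardial and endothelial markers. The genes lie close to the dashed line of equal and opposite differences, with *cxcr4b* and *cxcl12a* at the lower right among leukocyte and epicardial markers and *apela* and *cxcr4a* at the upper left.

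The genes whose levels over the 4 libraries were most like those of *aplnra* and *cxcl12a*, those of the 10 genes above 20 normalized counts with the largest absolute log2 fold change, were also sought among genes with a mean of at least 50. Likeness was the Euclidean distance between centered log2 values. For *aplnra*, the closest were *bmp6* (distance 0.00727), *ywhag2* (0.0121) and *krcp* (0.0128). *bmp6*, which encodes a secreted BMP ligand, was at 559 and 512 normalized counts in wild-type pools, against 609 and 689 in mutant pools. For *cxcl12a*, the closest were *pnkd* (0.00874), *dgkza* (0.0109) and *nrde2* (0.0114). *pnkd* was at 530 and 355 in wild-type hearts, compared with 425 and 658 in mutant hearts, which repeats the overlap seen for *cxcl12a*. With 4 libraries such likeness is a description.

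Further genes of the same pathways were read from 4 lists, of which 66 of 82 names were found in the table and 61 rows were tested. None had an adjusted p under 0.05, and 11 had an unadjusted p under 0.05 (5 higher and 6 lower in the mutants), against 21.6% of all genes. Their median log2 fold change was -0.02.

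In the S1P list, 1 of 12 genes tested had an unadjusted p under 0.05, *spns2* (ENSDARG00000061017, chromosome 5 from 30802798 to 30924453), which encodes the transporter that releases S1P from cells and whose loss in zebrafish gives unfused hearts. *spns2* was at 726 and 736 normalized counts in wild-type pools and 1101 and 1124 in mutant pools. Both mutant pools were above both wild-type pools, and the pools of each genotype were close to each other. Its log2 fold change of 0.61 (SE 0.04, unadjusted p = 0.000261, adjusted p = 0.122, limma) corresponds to 1.52-fold and missed the threshold after adjustment over all genes. With each library left out in turn the log2 fold change was between 0.59 and 0.62. With the replicate number added to the fit as a block, the SE was 0.099 and the adjusted p was 0.841 (limma). The kinase *sphk2*, which makes S1P, was at 210 and 172 in wild-type hearts and 195 and 246 in mutant hearts, and the lyase *sgpl1*, which degrades it, was at 712 and 602 and at 563 and 690, both overlapping. A further receptor, *s1pr5a*, was at 1087 and 869 in wild-type pools, against 1009 and 1307 in mutant pools, also overlapping. Genotypes were separate for 1 of the 12 S1P genes tested, *spns2*, against 50.5% of all genes.

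In the chemokine list, 2 of 16 genes tested had an unadjusted p under 0.05. *cxcl20* was at 59 and 70 normalized counts in wild-type hearts, compared with 111 and 96 in mutant hearts (log2 fold change 0.68, SE 0.15, adjusted p = 0.158, limma), and *ccl19a.1* was at 14 and 20 and at 9 and 6. Both genes were separate between genotypes, in opposite directions. The Cxcl12 scavenger *ackr3b* was at 1259 and 1199 in wild-type pools and 1159 and 1260 in mutant pools, and its paralog *ackr3a* was at 67 and 190 and at 160 and 59. Both overlapped, and *ackr3a* was high in wild-type 2 and mutant 1.

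Of the apelin processing genes, 4 of 7 were found in the table, and none of the 4 tested had an unadjusted p under 0.05. The proprotein convertase *furina*, a protease that cuts precursor proteins, was at 622 and 578 normalized counts in wild-type hearts, against 637 and 710 in mutant hearts. Its paralog *furinb* was at 345 and 314 in wild-type pools, compared with 379 and 431 in mutant pools. Mutant pools were above wild-type pools for either gene, with log2 fold changes of 0.17 and 0.30 (adjusted p = 0.347 and 0.234, limma). Of the others, *mmel1*, a metalloprotease gene, was at 3713 and 3676 against 3822 and 3997, and the convertase *pcsk7*, at 626 and 680 against 688 and 656, overlapped. Another apelin receptor gene, *aplnr2*, looked up outside the lists after its values were seen, was at 8 and 5 normalized counts in wild-type hearts and 17 and 24 in mutant hearts (log2 fold change 1.53, SE 0.35, adjusted p = 0.160, limma).

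Among the genes acting downstream of the receptors (G proteins, receptor kinases, arrestins, RGS proteins and further signaling genes), 8 of 29 rows tested had an unadjusted p under 0.05, 3 higher and 5 lower. *gna11b*, a G protein alpha subunit of the Gq class, was at 353 and 347 normalized counts in wild-type pools, against 446 and 470 in mutant pools (log2 fold change 0.39, SE 0.06, adjusted p = 0.134, limma). *rac2*, a Rac GTPase of blood cells, was at 299 and 296 and at 379 and 396 (0.38, SE 0.06, adjusted p = 0.134, limma). Both were higher in both mutants. The summed leukocyte markers, 1.102 times as high in the mutants, overlapped between genotypes. Of the 8 markers, 3 were higher in both mutants, *ptprc* (60 and 71 against 113 and 100), *mfap4* (306 and 277 against 345 and 394) and *mpeg1.1* (624 and 615 against 667 and 701). The other leukocyte markers overlapped, while genotypes were separate for 50.5% of all genes. The part of leukocytes in the *rac2* value was not tested. *arrb2a*, a beta-arrestin that takes receptors out of signaling, was at 557 and 542 in wild-type hearts, compared with 424 and 451 in mutant hearts (-0.33, SE 0.06, adjusted p = 0.141, limma). *grk5*, a kinase that marks active receptors for arrestin, was at 48 and 88 and at 18 and 10 (-2.19, SE 0.46, adjusted p = 0.147, limma). The level of *grk5* was lower in both mutants. It was highest in wild-type 2 and lowest in mutant 2, which had the highest and the lowest sum of skin and hatching gland markers. The hatching enzyme genes *he1.1* and *he1.2* were also lower in both mutants, the latter at 280 and 388 against 2 and 1. The part of skin and hatching gland cells in the *grk5* value was not tested.

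**Figure D4:**
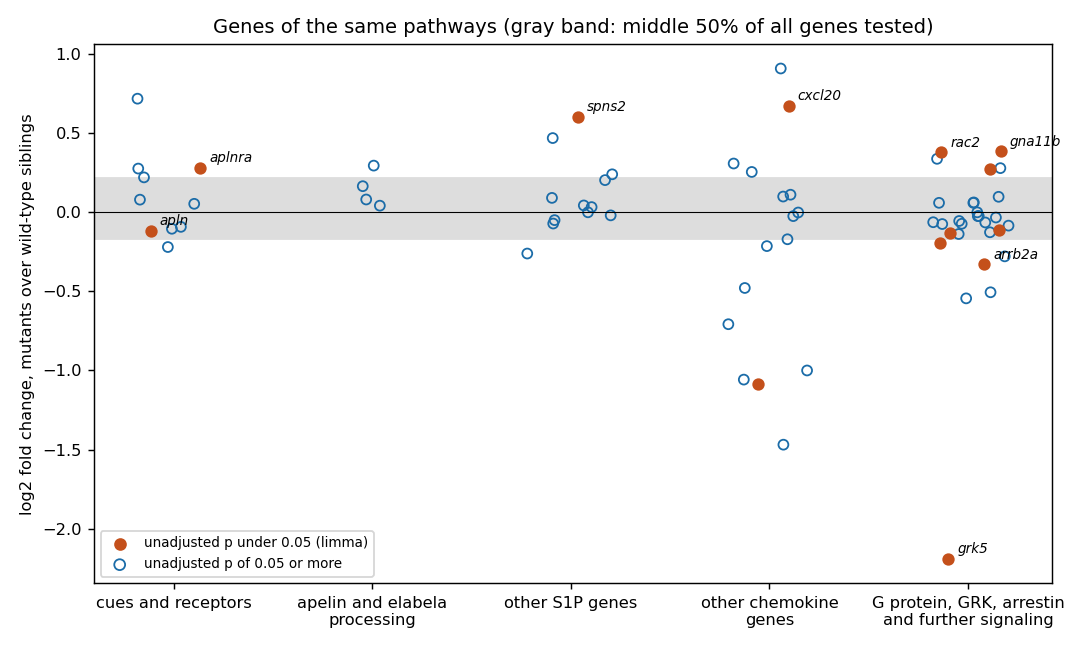
Log2 fold changes of mutants over wild-type siblings (y axis) for the 10 cue and receptor genes and the 4 lists of other pathway genes (x axis); each point is a gene, filled orange where the unadjusted limma p was under 0.05, with the middle 50% of all genes tested in gray. Most points lie in or near the gray band, with *spns2* at 0.61, *cxcl20* at 0.68 and *grk5* at -2.19 outside it.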

How the data were processed

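Per the labels, total RNA of pooled hearts was made into libraries with a SMART-Seq v4 kit. The submitters' processing notes name Trimmomatic 0.39, STAR 2.7.10a, Picard 2.27.1, featureCounts 2.0.2, DESeq2 1.30.1 and the build danRer11. The study's supplementary sheet states that duplicate reads were removed. The deposited values are treated as a score, since they are DESeq2-normalized counts that the authors rounded to whole numbers, and no count model was run on them.

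Values were fitted with limma 3.58.1 in R 4.3.3 (eBayes with a variance trend, no block) as log2(value + 1) for genes with a mean of at least 5. Fold changes are on that scale, which understates those of low genes such as *apela*. Adjusted p-values follow Benjamini and Hochberg over all 17501 genes. The fit was tested on simulated data with independent libraries. Such data lack the opposite deviations of replicates seen here, so that test does not show how the fit performs on these values. Python 3.11.15 with pandas 2.3.3 was used for summaries.

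The members and lists were chosen with earlier results of these data known. All 10 members are named. From each other list, up to 4 genes with the largest absolute fold change were named among those with a mean of at least 20, an unadjusted p under 0.05 and separate genotypes. *sphk2*, *sgpl1*, *s1pr5a*, *ccl19a.1*, *ackr3a*, *ackr3b*, *furina*, *furinb*, *mmel1*, *pcsk7*, *aplnr2*, *he1.1*, *he1.2*, *krt4*, *tp63*, *postna*, *tbx18*, *nfatc1*, *kdrl*, *etv2*, *fli1a*, *myh6*, *ptprc*, *mfap4* and *mpeg1.1* were added after their values were seen. Sequences of the genes were not used here, and the planned motif search was not run.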

Additional observations from a re-analysis of the deposited data

How the results depend on the processing

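The count of genes with an adjusted p under 0.05 was 1, and it was 0 without a filter on low values, 3 at a mean of at least 20, 28 without a variance trend and 0 relative to the endothelial markers, and it was 0 to 0 with each library left out in turn. For the 10 cue and receptor genes this count was 0 under every alternative except the crossed block. Of the 61 other pathway rows, 11 had an unadjusted p under 0.05, against 15 at equal upper quartiles and 4 to 5 with each library left out. For the 10 genes the count of 2 became 0 without a variance trend, 1 relative to the endothelial markers and 0 to 1 with each library left out. Same-numbered libraries of the genotypes deviated in opposite ways (correlation of deviations over genes -0.987). For the 10 genes, the replicate differences of the wild types and of the mutants summed to at most 0.0541 in absolute value on the log2 scale (median 0.0489). Whether the numbers pair the libraries, and what made the deviations opposite, was not tested. With the number as a replicate block, 0 genes had an adjusted p under 0.05, 3 other pathway rows and 1 of the 10 genes had an unadjusted p under 0.05, and all genes at that level numbered 858 in place of 3772. A crossed replicate block, chosen after seeing the data, called 12169 genes and 7 of the 10 at an adjusted p under 0.05, and 38 other pathway rows at an unadjusted p under 0.05. It follows the opposite deviations given above, which leaves little residual spread by construction. Its counts therefore say nothing on whether the genotypes differ.

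*apln*, *apela*, *aplnra* and *cxcl12b* kept their sign under all alternatives run. For *apln*, *apela* and *aplnra*, whose genotypes do not overlap, leaving out a library could not have turned it. *s1pr1* became -0.0059 relative to the endothelial markers. With each library left out in turn, log2 fold changes ran from -0.29 to 0.11 for *aplnrb*, from -0.0128 to 0.17 for *s1pr2*, from -0.0370 to 0.59 for *cxcl12a*, from -0.33 to 0.13 for *cxcr4a* and from -0.18 to 0.62 for *cxcr4b*; the cause was not tested. All counts relative to the endothelial markers, of genes, of the 10 genes and of pathway rows, were added after seeing the data. Levels under about 10 normalized counts, as of *apela*, limit what can be seen.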
